A study of Mus musculus with 13 samples.

Results

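Tifab and 4 genes that lie within 1 Mb of it on mouse chromosome 13, H2afy, Tgfbi, Pcbd2 and Smad5, were followed by RNA sequencing in progenitors that lacked Tifab, the microRNA miR-146a, or both. The 5 genes were picked by name out of 24062 rows of the expression table, with earlier results of the same table in view. Which values took part in that choice is not stated in the sources used here. Differences between groups with and without Tifab were treated as part of it. They are therefore given as a description, with their errors and with no p-value. Where the fit across all genes called one of the 5 genes there, that is given only as a count beside the share called over all genes. Such a call supports nothing. Differences between groups with and without miR-146a were tested. Whether those values also took part in the choice is not known here, so these tests may not be free of it.

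The cells were LK cells, bone marrow cells that carry no lineage markers, lack Sca-1 and carry c-kit, a fraction of committed myeloid, erythroid and megakaryocyte progenitors. They came from chimeras, Boy/J recipients irradiated with 7.0 and then 4.75 Gy 3 h apart, which had been given marrow of 1 of 4 genotypes. The 4 groups were dKO (TIFAB-/- and miR-146a-/-, 4 libraries), TIFAB_KO (TIFAB-/- and miR-146a+/+, 3 libraries), miR-146a_KO (TIFAB+/+ and miR-146a-/-, 3 libraries) and WT (TIFAB+/+ and miR-146a+/+, 3 libraries). Mice were 2 to 5 months old. By the protocol each group had 3 mice, but no label ties a library to a mouse, so p-values measure the spread between libraries, which may be technical. The part of Tifab that the TIFAB-/- allele lacks is not stated in the sources used here. Recipient cells that outlived irradiation would add RNA of the recipient's own genotype, and their share was not tested.

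Libraries held 7.83 to 12.8 M counted reads, and 3 reads, taken as the floor, were worth 0.235 to 0.383 CPM (reads of a gene scaled to a common library total). TIFAB_KO replicate 3 and dKO replicate 3 were the least like the rest (median Pearson r with the other libraries 0.962 and 0.964). No replicate pair agreed within sampling noise, the lowest chi-square per degree of freedom being 10.3. The markers of the sort were as labelled: Kit, which encodes c-kit, ranged from 270 to 459 CPM and Ly6a, which encodes Sca-1, ranged from 0.597 to 5.30 CPM. The 4 globin rows among the erythroid markers were at 0 in all 13 libraries, and why they hold no read was not tested. Other erythroid markers were at 0 in no library, among them Car1 (767 to 1769 CPM), Klf1 (63.3 to 131 CPM) and Slc4a1 (0.119 to 2.84 CPM). The erythroid sum given below therefore rests on the markers other than globins.

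TIFAB is a small protein related to TIFA, an adaptor that brings TRAF6 into the Toll-like receptor and NF-kB pathway, and TIFAB holds that pathway back by lowering TRAF6. The microRNA miR-146a acts on the same pathway through the messages of Traf6 and Irak1. In human myelodysplastic syndrome with loss of part of the long arm of chromosome 5, both genes can be lost together. The genes beside Tifab have other roles. H2afy encodes macroH2A1, a histone H2A variant with a large macro domain found in silenced chromatin. Tgfbi encodes a secreted matrix protein that TGF-beta induces, Smad5 encodes a signal transducer of bone morphogenetic protein receptors, and Pcbd2 encodes a pterin dehydratase that is also a cofactor of the transcription factor HNF1.

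By the GENCODE annotation of mm10, the 5 genes stand in the order Pcbd2, H2afy, Tifab, Tgfbi, Smad5. Tifab, a protein-coding gene of 3 exons on the minus strand (ENSMUSG00000049625.6), spans chr13:56173704-56178885. H2afy (ENSMUSG00000015937.15) is also on the minus strand, at chr13:56073619-56136361. Its start lies 42.5 kb from that of Tifab, and 37342 bases separate the 3′ end of Tifab from the 5′ end of H2afy. Tgfbi (ENSMUSG00000035493.10) is on the plus strand at chr13:56609523-56639562, with its start 431 kb from that of Tifab on the side away from H2afy. Smad5 (ENSMUSG00000021540.16), also on the plus strand, follows at chr13:56703010-56742377, with its start 524 kb from that of Tifab. Pcbd2 (ENSMUSG00000021496.12) lies beyond H2afy on the plus strand at chr13:55727368-55776830, and its start is 452 kb from that of Tifab. Between Tifab and Tgfbi start 7 genes that have a row in the table, among them Neurog1, Cxcl14 and Il9, and 0 of them were expressed highly enough to be tested. H2afy and Tgfbi were thus the nearest tested genes on either side of Tifab. No other row of the table overlaps any of the 5 genes, but annotated genes without a row do. Gm47071 overlaps H2afy and 4930451E10Rik overlaps Pcbd2, each on the opposite strand. Gm27301, Gm27834 and Gm27271 overlap Smad5 on its own strand. Whether reads of these genes were counted to H2afy, Pcbd2 or Smad5 was not tested.

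The promoters of the 3 genes whose levels were lower without Tifab are shown because they differ in base composition although the genes are neighbours. They are the 250 bases before to 50 after the RefSeq start on GRCm38.p6, on the gene's own strand, with each CpG in capitals. Tifab is at chr13:56178836-56179135, H2afy (now named Macroh2a1) at chr13:56135501-56135800 and Tgfbi at chr13:56609336-56609635.
Tifab: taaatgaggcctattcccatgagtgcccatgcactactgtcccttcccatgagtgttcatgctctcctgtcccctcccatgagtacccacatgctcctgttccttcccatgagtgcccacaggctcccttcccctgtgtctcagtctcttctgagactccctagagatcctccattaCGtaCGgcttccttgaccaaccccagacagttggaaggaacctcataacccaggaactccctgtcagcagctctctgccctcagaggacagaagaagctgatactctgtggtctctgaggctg
H2afy: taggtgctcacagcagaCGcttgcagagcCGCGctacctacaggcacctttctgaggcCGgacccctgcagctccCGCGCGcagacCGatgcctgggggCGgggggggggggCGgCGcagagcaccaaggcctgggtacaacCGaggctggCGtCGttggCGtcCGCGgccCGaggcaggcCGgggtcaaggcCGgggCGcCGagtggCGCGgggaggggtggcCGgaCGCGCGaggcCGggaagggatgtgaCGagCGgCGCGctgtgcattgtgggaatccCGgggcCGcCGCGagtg
Tgfbi: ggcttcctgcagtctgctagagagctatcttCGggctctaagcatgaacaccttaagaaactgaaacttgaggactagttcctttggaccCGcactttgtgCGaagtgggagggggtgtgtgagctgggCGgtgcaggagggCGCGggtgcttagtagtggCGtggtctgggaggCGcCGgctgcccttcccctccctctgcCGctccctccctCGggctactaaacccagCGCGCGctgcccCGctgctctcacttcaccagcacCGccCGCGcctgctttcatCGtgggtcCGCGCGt
The Tifab promoter holds 2 CpG and 54.3% G or C, and 23.3% of 32851 RefSeq mouse promoters hold as few CpG. The H2afy promoter holds 37 CpG and 74.3% G or C, and 95.0% of promoters hold as few or fewer. The Tgfbi promoter holds 22 CpG, that of Pcbd2 holds 36, and the 3 listed promoters of Smad5 hold 31, 36 and 31, against a median of 7 over all promoters. On both strands a GC box (GGGCGG), found in 35.7% of promoters, occurs 2 times in H2afy and 2 times in Tgfbi and is not in the Tifab window. TATAAA (13.6% of promoters), the E-box CACGTG (7.15%) and GAGGAA, the core that the myeloid factor PU.1 binds (28.3%), are in none of the 3 windows.

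Tifab was lowest in dKO, low in TIFAB_KO, higher in WT and highest in miR-146a_KO. The 4 dKO libraries held 6.20, 4.21, 3.23 and 11.0 CPM in replicates 1 to 4, the TIFAB_KO libraries 8.95, 11.7 and 12.8 CPM, the miR-146a_KO libraries 69.2, 70.8 and 64.4 CPM, and the WT libraries 40.4, 49.4 and 39.6 CPM. The 7 libraries labelled TIFAB-/- lay below the 6 others without overlap. Reads of the gene were left in every library labelled TIFAB-/-, from 28 in dKO replicate 3 to 164 in TIFAB_KO replicate 3, all above the floor of 3 reads. Since the removed part of the gene is not known here, whether these reads come from exons that remain, from recipient cells or from elsewhere was not tested.

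**Figure D1:**
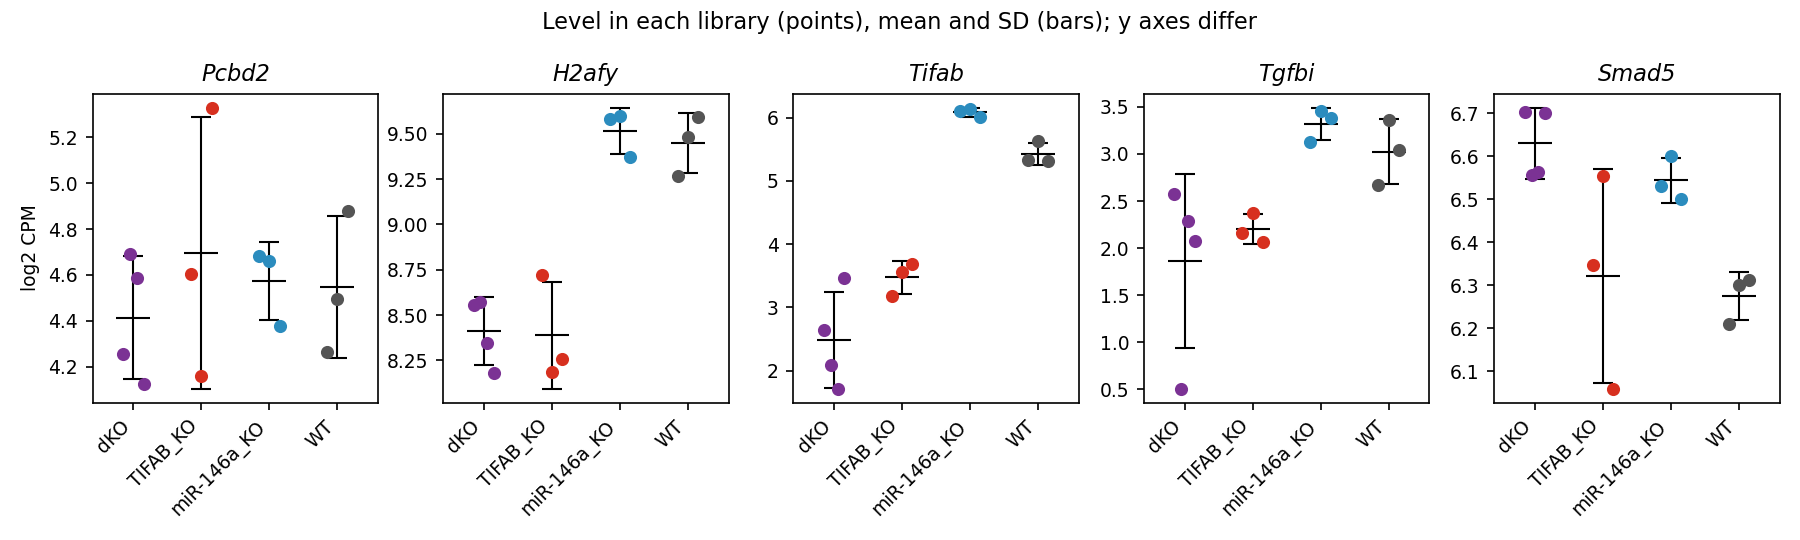
Level of each of the 5 genes (log2 CPM) in each library, by group; points are libraries, and the horizontal bars and whiskers are the group mean and SD (4 dKO libraries, 3 in each other group). Tifab, H2afy and Tgfbi lie lower in all 7 dKO and TIFAB_KO libraries than in all 6 miR-146a_KO and WT libraries, while Pcbd2 overlaps between all groups and Smad5 is lowest in WT and in TIFAB_KO replicate 3.

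On the log2 scale Tifab differed by -1.95 ± 0.31 (SE) between TIFAB_KO and WT, which leaves 25.8% of the WT level (95% interval 16.4 to 40.8%). Between dKO and miR-146a_KO it differed by -3.61 ± 0.29, leaving 8.19% (5.34 to 12.5%). The interaction, the second of these differences minus the first, was -1.66 ± 0.43 and is also a description. It can also be read as the difference between dKO and TIFAB_KO minus that between miR-146a_KO and WT, and both of these are contrasts of miR-146a loss that could be tested.

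H2afy stood at about the same reduced level in both groups without Tifab. The dKO libraries held 376, 380, 325 and 290 CPM, the TIFAB_KO libraries 422, 291 and 305 CPM, the miR-146a_KO libraries 767, 775 and 662 CPM, and the WT libraries 617, 715 and 773 CPM. The highest library without Tifab, TIFAB_KO replicate 1, was still 0.55 log2 units below the lowest library with it, WT replicate 1. The log2 difference was -1.06 ± 0.16 between TIFAB_KO and WT (47.9% of the WT level, 95% interval 37.7 to 60.9%) and -1.11 ± 0.15 between dKO and miR-146a_KO (46.5%, 37.2 to 58.1%). The interaction was -0.04 ± 0.23, with a 95% interval of -0.52 to 0.43 log2 units. In bulk samples fewer cells that express a gene and less RNA per cell cannot be told apart, for H2afy as for the other genes here.

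Tgfbi, a message of low abundance in these cells, was also lower in every library without Tifab. It held 5.89, 1.36, 4.84 and 4.17 CPM in dKO, 4.42, 5.15 and 4.14 CPM in TIFAB_KO, 8.65, 10.9 and 10.3 CPM in miR-146a_KO, and 6.34, 10.2 and 8.21 CPM in WT. The gap was small, 0.10 log2 units between dKO replicate 1 and WT replicate 1, and dKO replicate 2 rests on 11 reads. The log2 difference was -0.82 ± 0.41 between TIFAB_KO and WT, with a 95% interval of -1.68 to 0.03 that takes in 0. Between dKO and miR-146a_KO it was -1.46 ± 0.38 (interval -2.26 to -0.65), and without dKO replicate 2 the estimate was -1.01.

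Genes averaging 0 log2 CPM or more were tested, and of these 11867 genes 8 (0.0674%) were lower in all 7 libraries without Tifab than in all 6 with it, and 3 of these 8 were Tifab, H2afy and Tgfbi. Tifab and H2afy had the widest gaps, 1.62 and 0.55 log2 units, followed by Mad2l1bp, on chromosome 17, with 0.13 and Tgfbi with 0.10. Spg7, Urm1, Mkln1os and Bag3, each on another chromosome, had gaps of 0.07 or less. Lower without overlap between TIFAB_KO and WT alone were 3.31% of tested genes, and between dKO and miR-146a_KO alone 2.12%. These counts use values treated as part of the choice of genes and support nothing by themselves.

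The other pair of genes did not follow Tifab. Pcbd2 held 19.0, 25.8, 24.0 and 17.4 CPM in dKO, 24.2, 17.8 and 40.2 CPM in TIFAB_KO, 25.6, 25.2 and 20.7 CPM in miR-146a_KO, and 19.2, 22.5 and 29.3 CPM in WT. All 4 groups overlapped, and the highest library was TIFAB_KO replicate 3, one of those least like the rest. The log2 difference was 0.15 ± 0.26 between TIFAB_KO and WT and -0.16 ± 0.24 between dKO and miR-146a_KO. Smad5 held 104, 94.0, 94.5 and 104 CPM in dKO, 81.4, 94.0 and 66.7 CPM in TIFAB_KO, 92.4, 97.0 and 90.5 CPM in miR-146a_KO, and 74.0, 78.9 and 79.4 CPM in WT. Its log2 difference was 0.05 ± 0.15 between TIFAB_KO and WT (95% interval -0.26 to 0.35) and 0.09 ± 0.14 between dKO and miR-146a_KO (-0.20 to 0.37). For both genes the libraries with and without Tifab overlapped in these comparisons.

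**Figure D2:**
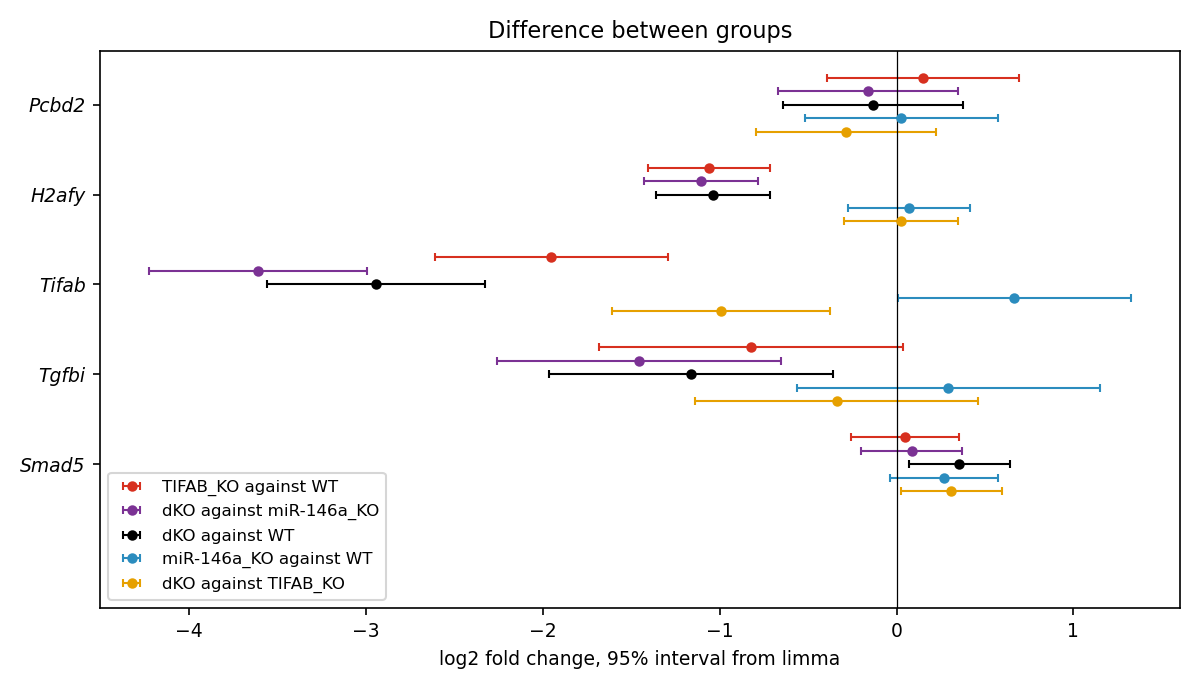
Log2 fold change of each gene in 5 comparisons, first group over second, with the 95% interval from limma. H2afy shows 3 nearly equal values near -1.1 in the comparisons of Tifab loss and values near 0 in both comparisons of miR-146a loss, whereas the values of Tifab lie farther from 0 than those of H2afy in all 5, with 0.67 and -0.99 in the comparisons of miR-146a loss, neither of which passed the threshold.

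Across all genes, limma called 2 of 11867 genes at a Benjamini-Hochberg adjusted p under 0.05 between TIFAB_KO and WT (0.0169%), and these were Tifab and H2afy. In dKO against miR-146a_KO it called 6 (0.0506%), of which 2 were lower in dKO (0.0169%), again Tifab and H2afy. Between dKO and WT it called 8 (0.0674%), among them Tifab at -2.94 ± 0.29 and H2afy at -1.04 ± 0.15 log2 units. The interaction called 0 of 11867 genes (0%), with 502 (4.23%) at an unadjusted p under 0.05. The calls of Tifab and H2afy fall within contrasts treated as part of the choice of genes, and the 3 comparisons share libraries. The 2 calls between TIFAB_KO and WT were also unsteady. Leaving out 1 library at a time gave 0 to 44 calls, with 44 without TIFAB_KO replicate 1, 4 without WT replicate 1, and 0 without dKO replicate 1, without TIFAB_KO replicate 2 or 3, without WT replicate 2 or 3, or without any 1 of the miR-146a_KO libraries. The count between dKO and miR-146a_KO was 2 without miR-146a_KO replicate 2 and 3 without dKO replicate 2. Calls between dKO and WT numbered 336 without dKO replicate 4, 28 without TIFAB_KO replicate 3, 5 without WT replicate 1 and 4 without WT replicate 2. Between TIFAB_KO and WT the log2 differences themselves moved little, from -2.06 to -1.80 for Tifab and from -1.23 to -0.96 for H2afy.

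The effect of miR-146a loss on the 5 genes was tested in cells with Tifab (miR-146a_KO against WT) and without it (dKO against TIFAB_KO). The fit called 10 genes (0.0843%) in the first comparison and 4 (0.0337%) in the second, and 0 of the 5 genes in either. Both counts moved with the libraries used. The first was 89 with only the groups compared and 4 to 12 with 1 library left out, and it fell to 4 without miR-146a_KO replicate 2 or 3 or WT replicate 1 or 2 and to 6 without WT replicate 3. The second was 278 without dKO replicate 4, 124 without TIFAB_KO replicate 2 and 3 to 5 without any other library. Tifab was 0.67 ± 0.31 log2 units higher in miR-146a_KO than in WT (adjusted p = 0.522 from limma), with all 3 miR-146a_KO libraries above all 3 WT libraries. Higher without overlap were 15.5% of all tested genes in that comparison. A fit on those 2 groups alone gave the same difference with an adjusted p of 0.049. Against TIFAB_KO, Tifab in dKO was lower by -0.99 ± 0.29 log2 units (adjusted p = 0.150 from limma), and dKO replicate 4, at 11.0 CPM, overlapped the TIFAB_KO range. Without dKO replicate 4 that difference was -1.32 with an adjusted p of 0.0142.

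H2afy showed no difference past the threshold with miR-146a loss. It differed by 0.07 ± 0.16 log2 units between miR-146a_KO and WT (95% interval -0.28 to 0.41, adjusted p = 0.904 from limma) and by 0.02 ± 0.15 between dKO and TIFAB_KO (-0.30 to 0.35, adjusted p = 0.949). Both intervals leave out a change as large as that between the groups with and without Tifab. Tgfbi differed by 0.29 ± 0.41 (adjusted p = 0.828) and -0.34 ± 0.38 (adjusted p = 0.650), and Pcbd2 by 0.03 ± 0.26 (adjusted p = 0.977) and -0.28 ± 0.24 (adjusted p = 0.538), in the same order.

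Smad5 was higher in both groups without miR-146a than in their counterparts, but not past the threshold. It differed by 0.27 ± 0.15 log2 units between miR-146a_KO and WT (adjusted p = 0.562 from limma) and by 0.31 ± 0.14 between dKO and TIFAB_KO (adjusted p = 0.242). The libraries did not overlap in either comparison, by a margin smaller than the rounding above in the second, where dKO replicate 2 and TIFAB_KO replicate 2 both print as 94.0 CPM. Of all tested genes 15.5% and 6.82% were higher without overlap in these comparisons, and the median of all genes was itself shifted by 0.09 log2 units in each, so Smad5 differed in a direction that many genes shared.

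The mature mouse miR-146a-5p of RefSeq (chr11:43374435-43374456, minus strand, GRCm38.p6) and the matches to its seed are shown because they separate the 5 genes into those with and without a match. Seed bases 2 to 8 are in capitals, as is the match AGTTCTC in the longest protein-coding GENCODE transcript of each gene, written with 8 bases on either side.
miR-146a-5p: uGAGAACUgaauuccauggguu
Pcbd2: ctacaaagAGTTCTCcttcaaaa
Smad5: tagccttcAGTTCTCtaccctct
Pcbd2 and Smad5 hold 1 match each and Tifab, H2afy and Tgfbi hold none, while 22.8% of 21877 protein-coding genes hold at least 1. The search took in whole transcripts, coding and untranslated parts alike. The Pcbd2 match starts at base 214 of 546 and the Smad5 match at base 3995 of 6584. In which part of the transcript each lies was not examined, and the share of genes was not adjusted for transcript length. A match is a description of the letters and not of a site in use.

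Genes around the 5 were taken by position alone. The 5 genes, picked with earlier results in view, are left out of the 61 below, so the 61 are what that choice left over. In any comparison at most 0.0843% of all tested genes were called, so 0 calls among so few genes is near that share. Within 5 Mb of the Tifab start 118 genes have a row and 66 were tested. Of the 61 that are not among the 5 named genes, 0 were called in any comparison, and their lowest adjusted p in limma was 0.968 between TIFAB_KO and WT, 1.00 between dKO and miR-146a_KO, 0.269 between miR-146a_KO and WT and 0.155 between dKO and TIFAB_KO. Their median log2 fold change was -0.04 between TIFAB_KO and WT, against -0.01 over all tested genes, and 0.01 between dKO and miR-146a_KO, against -0.01. The median size of the change without regard to sign was 0.15, against 0.16 over all genes, in the first comparison and 0.10, against 0.12, in the second. Leaving out single libraries brought in 4 of these genes, which are named for that reason. Ctla2a, at the far edge of the window, differed by -0.89 (adjusted p = 0.0183) between TIFAB_KO and WT without TIFAB_KO replicate 1, and by -0.49 with it. Without dKO replicate 4, the difference between dKO and WT was -0.87 for Hnrnpa0 (adjusted p = 0.0267), 1.11 for S1pr3 (adjusted p = 0.0217) and 0.74 for Zfp346 (adjusted p = 0.0355), against -0.62, 0.83 and 0.63 with it.

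**Figure D3:**
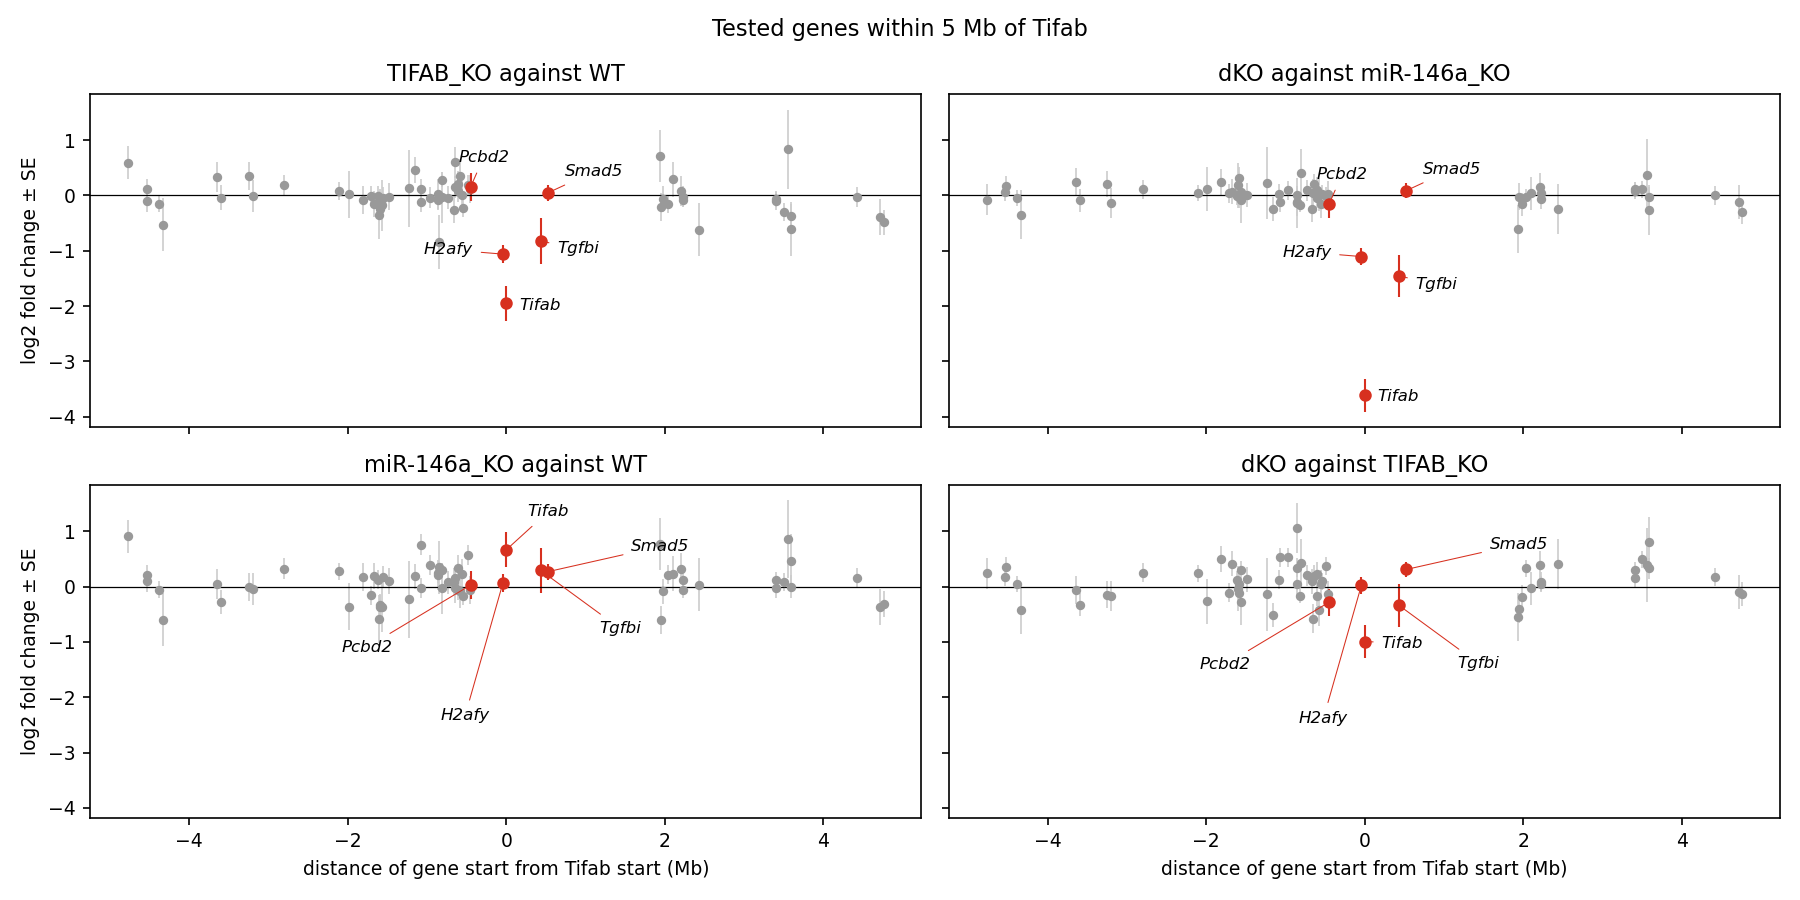
Log2 fold change ± SE of the 66 tested genes within 5 Mb of Tifab, by the distance of their start from that of Tifab (Mb), in 2 comparisons of Tifab loss (top) and 2 of miR-146a loss (bottom); the 5 named genes are red. In the top panels Tifab and H2afy lie below a band of neighbours around 0 that takes in Pcbd2 and Smad5, Tgfbi lies at about the level of the lowest neighbour, Mxd3 (-0.84), on the left and below all neighbours on the right, and in the bottom panels H2afy lies within the band.

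Within 1 Mb, 40 genes have a row and 22 were tested, 17 of them outside the named 5. All 17 lie beyond Pcbd2, on the side of H2afy. Between TIFAB_KO and WT they ranged from -0.84 ± 0.48 for Mxd3, which encodes a MAX-binding repressor and is barely expressed here, to 0.60 ± 0.28 for Dok3, an adaptor of immune receptor signalling. Between dKO and miR-146a_KO they ranged from -0.25 ± 0.23 for Pdlim7, a cytoskeletal adaptor, to 0.41 ± 0.43 for Rgs14, a regulator of G-protein signalling. Among the abundant neighbours the differences between TIFAB_KO and WT were 0.28 ± 0.13 for Lman2, a cargo receptor of the secretory pathway, -0.04 ± 0.18 for Nsd1, a histone methyltransferase, 0.07 ± 0.19 for Tmed9, another protein of that pathway, and -0.09 ± 0.18 for Prelid1, a mitochondrial lipid transfer protein. In dKO against miR-146a_KO those of Lman2, Nsd1, Tmed9 and Prelid1 were -0.17 ± 0.12, 0.09 ± 0.17, -0.05 ± 0.17 and 0.00 ± 0.17. Ddx41, an RNA helicase mutated in human myeloid malignancy, differed by 0.15 ± 0.20 between TIFAB_KO and WT and by 0.20 ± 0.19 between dKO and miR-146a_KO. The splicing helicase Ddx46 differed by -0.23 ± 0.16 and 0.03 ± 0.15 in the same comparisons. The 18 untested genes, Pitx1 and Lect2 among them, averaged below 0 log2 CPM.

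The level per kb of the longest protein-coding transcript (CPM per kb, mean ± SD) sets the 5 genes on 1 scale. In WT, H2afy stood at 343 ± 38.5, Pcbd2 at 43.4 ± 9.49, Tifab at 12.9 ± 1.63, Smad5 at 11.8 ± 0.448 and Tgfbi at 3.04 ± 0.709 (n = 3). Tifab and Smad5 do not differ beyond their spread in that order, and the value of Pcbd2 rests on a transcript model of only 546 bases. In dKO, with n = 4, Smad5 stood at 15.1 ± 0.861, Tifab at 1.84 ± 1.03 and Tgfbi at 1.50 ± 0.713, so the levels of Tifab and Tgfbi overlapped. H2afy, at 167 ± 21.1 in dKO, remained the most abundant of the 5.

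H2afy was the gene whose profile over all 13 libraries was most like that of Tifab, and Tifab the most like H2afy (Pearson r of log2 CPM 0.857, the highest of all tested genes in both directions). Next to Tifab came Ccl4 (0.832), Anapc5 (0.816), Mad2l1bp (0.811) and Spg7 (0.804), and then Tgfbi (0.800). Next to H2afy came Rbm8a (0.813), Perp (0.795), Bag3 (0.784) and Ccdc117 (0.775), with Tgfbi at rank 18 (0.699). The 13 points share 4 groups, and the likeness between Tifab and H2afy rests on the groups. Taken as deviations from group means, the r was -0.40. The ranks over the 13 libraries use values treated as part of the choice of genes, so they support nothing by themselves. Within TIFAB_KO, replicate 1 had the highest H2afy and the lowest Tifab, and within dKO replicate 4 had the lowest H2afy and the highest Tifab. The r of Pcbd2 with Tifab was 0.05, that of Smad5 with Tifab -0.25 and that of Smad5 with Pcbd2 -0.60.

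**Figure D4:**
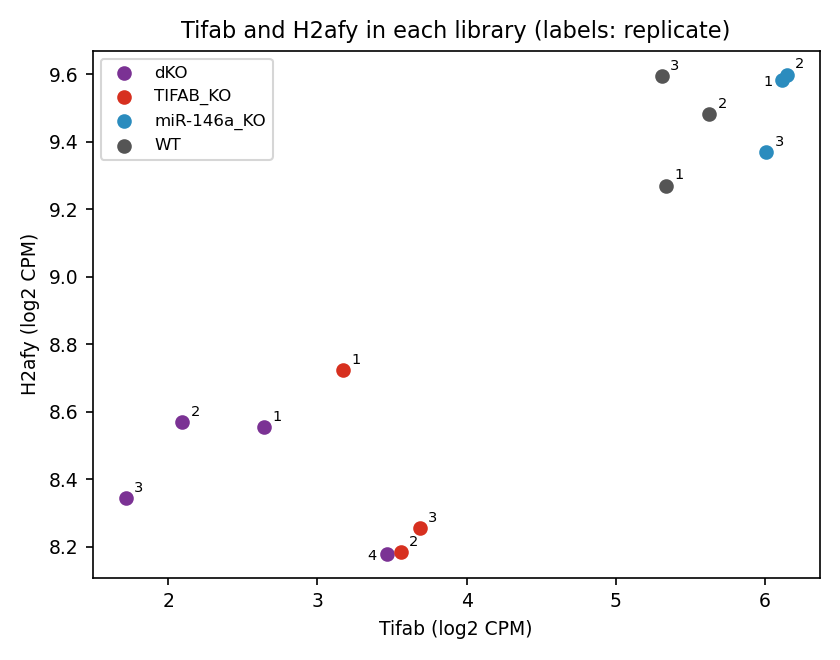
Level of H2afy against that of Tifab (log2 CPM) in each of the 13 libraries, coloured by group and labelled with the replicate number. The 7 dKO and TIFAB_KO libraries lie at the lower left and the 6 miR-146a_KO and WT libraries at the upper right, and within the lower cluster the libraries with the most Tifab have the least H2afy.

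Relatives of Tifab, H2afy, Smad5 and Pcbd2, which lie elsewhere in the genome, were compared in the same way. No relative of Tgfbi was examined. Tifa, the relative of Tifab and an activator of TRAF6, held 18.7 to 37.9 CPM over all libraries and differed by 0.24 ± 0.22 log2 units between TIFAB_KO and WT and by -0.08 ± 0.20 between dKO and miR-146a_KO. H2afy2, which encodes macroH2A2, held only 0.743 to 3.75 CPM and differed by -0.36 ± 0.58 and 0.19 ± 0.54. Smad1, which shares its receptors with Smad5, differed by 0.03 ± 0.19 and -0.06 ± 0.18, and Pcbd1, at 0.922 to 4.43 CPM, by 0.33 ± 0.45 and -0.57 ± 0.42. None of the 4 was called by limma (adjusted p 0.999 or higher in both comparisons), where 0.0169% and 0.0506% of all tested genes were. Smad9 held 0 to 5 reads per library and was not tested.

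The pathway in which TIFAB acts was followed through a list of 18 genes, all tested, from the receptor adaptor Myd88 through the IRAK kinases and TRAF6 to the TAK1 and IKK complexes. Between TIFAB_KO and WT 0 were called, where 0.0169% of all tested genes were. Of the 18 genes 8 lay below 0 and 10 above (52.4% of all tested genes lay below 0). The median log2 fold change was 0.06 against -0.01 over all tested genes. Values for the 3 largest were 0.60 ± 0.38 for Tab1, 0.58 ± 0.20 for Myd88 and -0.30 ± 0.19 for Chuk, an IKK kinase. For dKO against miR-146a_KO 0 were called, where 0.0506% of all tested genes were. At such shares a count of 0 in so short a list says nothing about the pathway. The median for dKO against miR-146a_KO was 0.00 against -0.01, with 0.19 ± 0.17 for Ube2n, -0.18 ± 0.22 for Traf2 and -0.16 ± 0.19 for Myd88. Traf6 itself differed by -0.16 ± 0.20 between TIFAB_KO and WT and by 0.00 ± 0.19 between dKO and miR-146a_KO. At an unadjusted p under 0.05 the list held 1 gene in the first comparison, Myd88, where 5.11% of all genes passed, and 0 in the second, where 1.93% did.

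Histone H2A variants and partners of macroH2A made a list of 11 genes, all tested. Of the 10 besides H2afy, which was chosen with earlier results in view, 0 were called between TIFAB_KO and WT or between dKO and miR-146a_KO. Over all tested genes 0.0169% and 0.0506% were called. The other variants in the list ranged from -0.36 ± 0.58 (H2afy2) to 0.31 ± 0.21 (H2afj) in the first comparison and from -0.40 ± 0.20 (H2afj) to 0.19 ± 0.54 (H2afy2) in the second. In the first, 6 of the 11 genes, H2afy among them, lay below 0 (52.4% of all tested genes did), with a median of -0.02. In the second, 9 of the 11, again with H2afy, lay below 0 (52.2% of all tested genes did), with a median of -0.08. The median over all tested genes was -0.01 in both. Parp1, whose product binds the macro domain, differed by 0.02 ± 0.15 between TIFAB_KO and WT and by -0.11 ± 0.14 between dKO and miR-146a_KO. Chd1l, a macro domain remodeller, differed by 0.14 ± 0.21 and -0.18 ± 0.20 in the same order.

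Of 31 genes of the SMAD, TGF-beta and bone morphogenetic protein pathways, a list that holds Smad5 and Tgfbi, 23 were tested. In any comparison 0 of them were called, where at most 0.0843% of all tested genes were, so the count of 0 says nothing about the pathways. Between TIFAB_KO and WT 17 lay below 0 (52.4% of all tested genes did) and the median was -0.13, against -0.01 over all tested genes. Besides Tgfbi the largest values were -0.85 ± 0.60 for Id3, a target of bone morphogenetic protein signalling, and -0.71 ± 0.36 for Skil, a SMAD corepressor. The only list gene at an unadjusted p under 0.05 in limma there was Tgfbr3, at -0.57 ± 0.16, where 5.11% of all genes passed. Between dKO and miR-146a_KO Tgfbr3 differed by 0.20 ± 0.15. For dKO against miR-146a_KO 11 lay below 0 (52.2% of all tested genes did) and the median was 0.04, with -0.48 ± 0.30 for Id2 and -0.46 ± 0.44 for Id1. Of the 8 genes of the tetrahydrobiopterin cycle, to which the dehydratase activity of Pcbd2 belongs, 7 were tested. In these 2 comparisons 0 were called, against 0.0169% and 0.0506% of all tested genes. The medians were -0.03 and -0.12, against -0.01 over all tested genes in both.

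Tgfbi is also a message of monocytes and macrophages, so the markers of those cells are given beside it. Of 18 such markers 17 have a row, and their summed level was 1024 to 1235 CPM in dKO, 1186 to 1558 CPM in TIFAB_KO, 1021 to 1177 CPM in miR-146a_KO and 780 to 1081 CPM in WT. In this sum the TIFAB_KO libraries lay above all WT libraries, and the dKO range overlapped that of miR-146a_KO. The part of these cells in the level of Tgfbi was not tested. The macrophage marker C1qa was at 0 in 7 libraries and reached at most 1.33 CPM, and Fcgr1 was at 0 in 2 libraries. Other markers of the list were at 0 in no library: C1qb (0.407 to 8.21 CPM), C1qc (0.449 to 6.18), Mrc1 (0.576 to 15.9) and Vcam1 (3.87 to 82.0). The monocyte marker Ccr2 ranged from 73.2 to 184 CPM. Summed late granulocyte markers (10 genes) ran from 20.3 to 533 CPM in dKO, from 34.9 to 201 CPM in TIFAB_KO, from 42.7 to 81.9 CPM in miR-146a_KO and from 22.7 to 70.2 CPM in WT. The erythroid sum was 1650 to 2629 CPM in dKO, 1466 to 1764 CPM in TIFAB_KO, 1649 to 2019 CPM in miR-146a_KO and 2279 to 2879 CPM in WT. In that sum TIFAB_KO and miR-146a_KO both lay below WT without overlap. Of all tested genes 3.31% were lower without overlap in TIFAB_KO against WT. Summed markers of megakaryocytes (8 genes) ran from 426 to 801 CPM in dKO, from 681 to 840 CPM in TIFAB_KO, from 490 to 717 CPM in miR-146a_KO and from 763 to 954 CPM in WT. Here miR-146a_KO lay below WT without overlap. B-lineage markers (9 genes) summed to 15.5 to 25.5 CPM in dKO, 13.8 to 18.8 CPM in TIFAB_KO, 25.4 to 36.9 CPM in miR-146a_KO and 13.4 to 19.5 CPM in WT. In this small sum miR-146a_KO lay above WT without overlap, as did 15.5% of all tested genes in that comparison. T and NK cell markers summed to at most 13.2 CPM in any library. The summed LK progenitor markers (8 genes, mostly Mpo) were 9873 to 13426 CPM in dKO, 14310 to 16789 CPM in TIFAB_KO, 11359 to 13482 CPM in miR-146a_KO and 8789 to 13404 CPM in WT, so that TIFAB_KO lay above all other groups. How often sums of other gene lists separate the groups in this way was not examined, so the separations of marker sums given here are a description only. The part of cell makeup in the levels of any of the 5 genes was not tested.

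**Figure D5:**
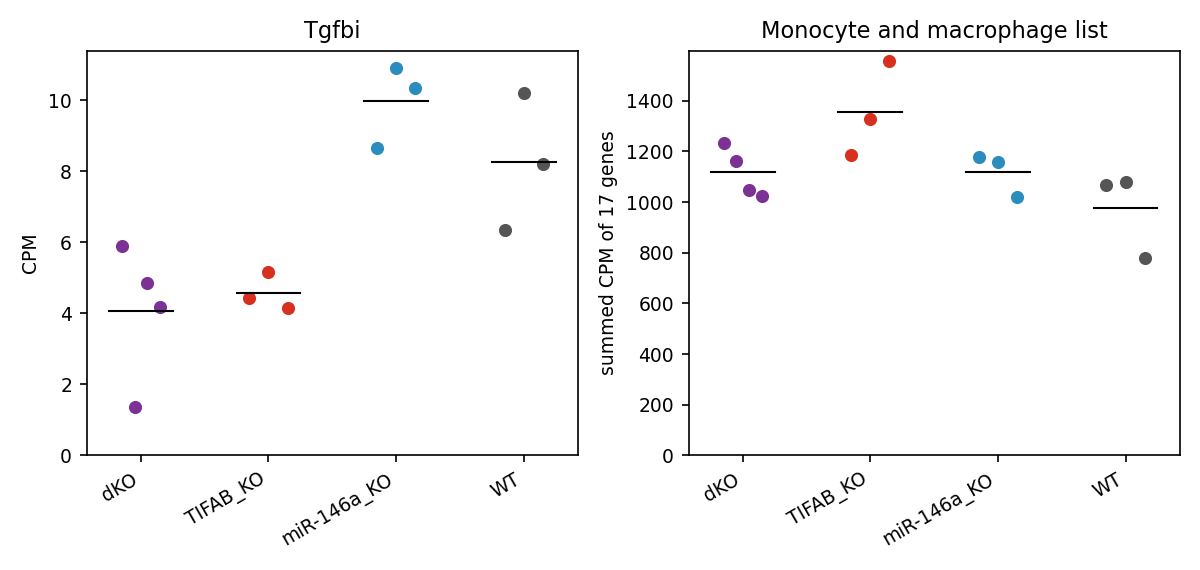
Tgfbi (CPM, left) and the summed level of 17 monocyte and macrophage markers (CPM, right) in each library by group; points are libraries and lines group means. Tgfbi is lower in dKO and TIFAB_KO than in miR-146a_KO and WT, and the mean marker sum is highest in TIFAB_KO and lowest in WT.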

How the data were processed

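Per the labels' protocols, LK cell RNA was amplified by Ovation RNA-Seq System v2, which does not mark strand, before Nextera XT library preparation. Per the submitters' processing notes, TopHat, featureCounts and limma were used with mm10; their versions are not stated in the sources used here. The deposited values, per the file, are log2 CPM, to which the authors had added 0.5 read per gene and 1 to each total; whole reads were recovered for 100% of values within 0.01 read, and CPM were computed from them. Positions came from GENCODE M21 (22724 of 24062 rows matched by symbol).

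One limma model (3.58.1, R 4.3.3) was fitted on the deposited log2 CPM with 1 mean per group over 13 libraries, 9 residual degrees of freedom, a variance trend and 11867 genes with a mean of at least 0. Adjusted p-values are Benjamini-Hochberg over those genes, within a contrast, with a threshold of 0.05. Errors of fold changes are SE. Fold changes of low genes are understated by the added 0.5 read. Members, lists and named genes were chosen with earlier results of these data known. Named were the 5 genes, genes within 1 Mb of Tifab, any called within 5 Mb, relatives, the 3 largest of each list per comparison and the 5 genes most like Tifab and H2afy. The alternatives tried were leaving out the filter, a minimum mean of 3, median centring, log2(CPM + 1), no variance trend, voom weights, only the groups compared, a replicate block, each library left out and, chosen after seeing the data, the 2 least alike libraries left out.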

Additional observations from a re-analysis of the deposited data

Results flagged for a closer look

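Among 34 genes examined within the 4 dKO libraries, the named genes with their neighbours, relatives and most similar genes, 2 had a library that stood apart from the other 3, and chance alone flags about 1 in 20. Ddx46, a splicing helicase gene within 1 Mb of Tifab, stood at 8.285 log2 CPM in dKO replicate 4, with a gap of 0.898 of the group's range. Anapc5, a subunit of the anaphase-promoting complex and one of the genes most like Tifab, stood at 7.831 log2 CPM in dKO replicate 4 against a lowest dKO value of 7.776, a spread of 0.055 log2 units. The same library had the highest Tifab and the lowest H2afy of the dKO group, and neither of those was far enough from the rest to be flagged.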

How the results depend on the processing

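In the 2 comparisons of miR-146a loss, 215 of 218 fold changes of the 5 genes kept their side of the threshold across 22 alternatives. The 3 exceptions were Tifab in miR-146a_KO against WT with only the groups compared (0.67) and Tifab in dKO against TIFAB_KO without dKO replicate 4 or with the replicate block (-1.32). In the comparisons of Tifab loss and the interaction all 431 fold changes of the 5 genes moved by less than the spread between replicates, but calls were lost. Tgfbi, with a mean of 2.54 log2 CPM, was not in the alternative with a minimum mean of 3 and was not checked there. Between TIFAB_KO and WT H2afy was called in 10 of 22 alternatives and Tifab in 11, between dKO and miR-146a_KO in 20 and 22, and between dKO and WT in 19 and 22. Calls over the whole table, then within 5 Mb, are given below where they moved by more than 1.5 times; 203 of 262 counts stayed within that. Without a filter they were 0 and 0 for TIFAB_KO against WT, 7 over the table for dKO against TIFAB_KO, and 1 within 5 Mb for dKO against WT. Without a variance trend they were 0 and 0 for TIFAB_KO against WT, 3 and 1 for dKO against miR-146a_KO, 4 and 1 for dKO against WT, and 5 over the table for miR-146a_KO against WT. With only the groups compared they were 1 and 1 for TIFAB_KO against WT, 89 and 1 for miR-146a_KO against WT, and 13 over the table for dKO against WT. Without the 2 least alike libraries they were 3 and 1 for TIFAB_KO against WT. Leaving out 1 library gave 0 to 44 and 0 to 3 for TIFAB_KO against WT, 2 to 5 and 1 to 2 for dKO against miR-146a_KO, 4 to 12 and 0 for miR-146a_KO against WT, 3 to 278 and 0 to 1 for dKO against TIFAB_KO, 4 to 336 and 1 to 5 for dKO against WT, and 0 to 1 and 0 for the interaction. The highest counts for dKO against TIFAB_KO and against WT came without dKO replicate 4, and 124 came for the first without TIFAB_KO replicate 2. The cause was not tested. Tgfbi, at 11 to 115 reads per library, is limited by depth.

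The replicate numbers did not pair the libraries: of 18 same-numbered pairs 2 had deviations correlated above 0.1, and the median r was -0.02. With the replicate block, in which dKO replicate 4 has no partner and drops out, calls were 3 over the table for dKO against miR-146a_KO, 146 and 1 for dKO against TIFAB_KO, and 281 and 5 for dKO against WT.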
